A study of Homo sapiens with 6 samples.

Results

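Transcripts of 9 genes of the p53 pathway were followed by RNA sequencing in SK-N-BE(2), an established line of human neuroblastoma cells with amplified MYCN. The genes were TP73, MDM2, MDM4, CDKN1A, GDF15, TNFRSF10B, TP53INP1, ZMAT3 and SESN1, taken by their symbols from a deposited table of 19937 genes, where each stood on 1 row. The 6 libraries were 3 titled sgcon and 3 titled sgGPR91, and the series describes a knockout of GPR91, the succinate receptor encoded by SUCNR1. Both groups carried the same treatment label. It gives doxorubicin at 100 nmol/L for 48 hours in the sample tags and DOX at 1.5 µg/ml for 48 hours in the growth protocol, and the sources used here do not settle which applied. The genotype tags state the reverse of the titles, with knockout for the libraries labelled sgcon and control for those labelled sgGPR91. Groups are named by title throughout; should the tags be the true ones, higher and lower would trade places in all that follows. The labels do not say whether the edited cells were 1 clone or a pool, or whether replicates were separate cultures, so the p-values rest on the spread among libraries alone, and that spread may be technical.

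The p53 protein is a transcription factor that is held at a low level by MDM2, a ubiquitin ligase that marks it for degradation, and by MDM4, a related protein that blocks its transactivation domain. DNA damage, as caused by anthracyclines such as doxorubicin, normally releases p53 from both, and p53 then induces genes for cell cycle arrest (CDKN1A), death receptor signalling (TNFRSF10B), stress and redox control (SESN1, TP53INP1), RNA regulation (ZMAT3) and secreted stress signals (GDF15), along with MDM2 itself as a negative feedback. SK-N-BE(2) is known as a line with mutant p53, and no untreated library was analysed here, so the comparison is between the titled groups under the same treatment and says nothing of induction by the drug.

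Total counts ran from 7070189 to 10252425 per library. All 14 neuroblastoma markers on the list, among them HAND2, TH, DBH and MYCN, were above 10 CPM (read counts scaled to library size) in every library. Their summed level was 7305 to 8193 CPM in the sgcon libraries and 5441 to 5890 CPM in the sgGPR91 libraries, and 11 of the 14 were called lower and 2 higher in sgGPR91, where 21.0% and 20.2% of all tested genes were called lower and higher. Of 11 markers of other cell types, 2 (CD3E and CD68) had no read, and the summed level was 124.3 to 155.7 CPM in sgcon and 104.8 to 112.1 CPM in sgGPR91, carried by COL1A1, COL3A1 and EPCAM. The part of these shifts in the results that follow was not tested, and in bulk RNA fewer cells of a type and less RNA per cell cannot be told apart. SUCNR1 itself had 3 reads over all sgcon libraries and 1 over all sgGPR91 libraries, too few to tell whether the titles or the tags hold.

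The p53 binding sequence consists of tandem half-sites of 10 bases, each made of 3 purines, C, 2 bases that are A or T, G and 3 pyrimidines, and it reads the same on both strands. RefSeq promoter windows on GRCh38.p14, from 250 bases before to 50 bases after an annotated start, were found for 7 of the 9 members, with 15 windows in all. They were searched for 2 half-sites with no spacer. Sites with at most 2 mismatches to this 20-base consensus stood in 0.649% of 35116 windows of all genes, and with at most 3 in 5.20%. They are shown because they let the reader set the regulatory sequence beside the expression of the same gene. Capitals mark each site of at most 3 mismatches, and the flanks stop before the start.
MDM2, internal promoter, chr12:68808903-68809000, plus strand: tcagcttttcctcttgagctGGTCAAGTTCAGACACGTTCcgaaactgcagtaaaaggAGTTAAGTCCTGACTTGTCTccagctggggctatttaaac
TP73, internal promoter, chr1:3690576-3690635, plus strand: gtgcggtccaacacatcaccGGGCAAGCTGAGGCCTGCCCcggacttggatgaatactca
SESN1, internal promoter, chr6:109008998-109009057, minus strand: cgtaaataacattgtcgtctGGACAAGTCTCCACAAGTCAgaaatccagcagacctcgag
GDF15, site only, chr19:18386186-18386205, plus strand: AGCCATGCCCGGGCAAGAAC

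The MDM2 window held sites of 2 and 3 mismatches, the first beginning 94 bases before a RefSeq start, and p53 is known to act on MDM2 through this internal promoter. The TP73 site had 2 mismatches and began 76 bases before an internal start, that of the amino-terminally truncated forms of p73. The SESN1 site had 3 mismatches and began 49 bases before an internal start, while the window at the listed 5′ end of SESN1 had at best 5 mismatches. The GDF15 site had 3 mismatches and began 28 bases after a RefSeq start that lies inside the listed gene. Windows of MDM4, CDKN1A and ZMAT3 held no such match, which says only that these letters are not in those windows; the best known p53 sites of CDKN1A lie further upstream. As the values below show, the 4 genes with a site went different ways, with GDF15 higher, TP73 and SESN1 lower and MDM2 not called. Over all tested genes with a window, 63 held a site of at most 2 mismatches, of which 17 were called higher and 16 lower (27.0% and 25.4%), beside 20.1% and 20.8% of all 10264 tested genes with a window. At the limit of 3 mismatches used for the printed sites, 581 tested genes held a site, and 116 were called higher (20%) and 142 lower (24.4%). A matching sequence is a description of the letters and not evidence that p53 bound there.

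All 9 members passed the filter on low counts, GDF15 through its sgGPR91 libraries and TP73 through its sgcon libraries. In edgeR's quasi-likelihood test with Benjamini-Hochberg adjustment over 12701 genes, 4 members were called higher in sgGPR91 (GDF15, TNFRSF10B, TP53INP1 and ZMAT3) and 3 lower (TP73, SESN1 and MDM4), and CDKN1A and MDM2 were not called. A call was an adjusted p under 0.05. Of all genes tested 41.1% were called, 20.2% higher and 21.0% lower, so a call as such was common in this comparison. The libraries of the groups did not overlap for 7 of the 9 members, against 50.9% of all genes. The members were chosen with earlier results of these data known. The choice may thus have shaped both counts, and they are no independent result about the members. GDF15 and TP73, which passed the filter through the group where they are higher, are in both counts. The median log2 fold change was -0.04 over the members and -0.01 over all genes tested.

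**Figure D1:**
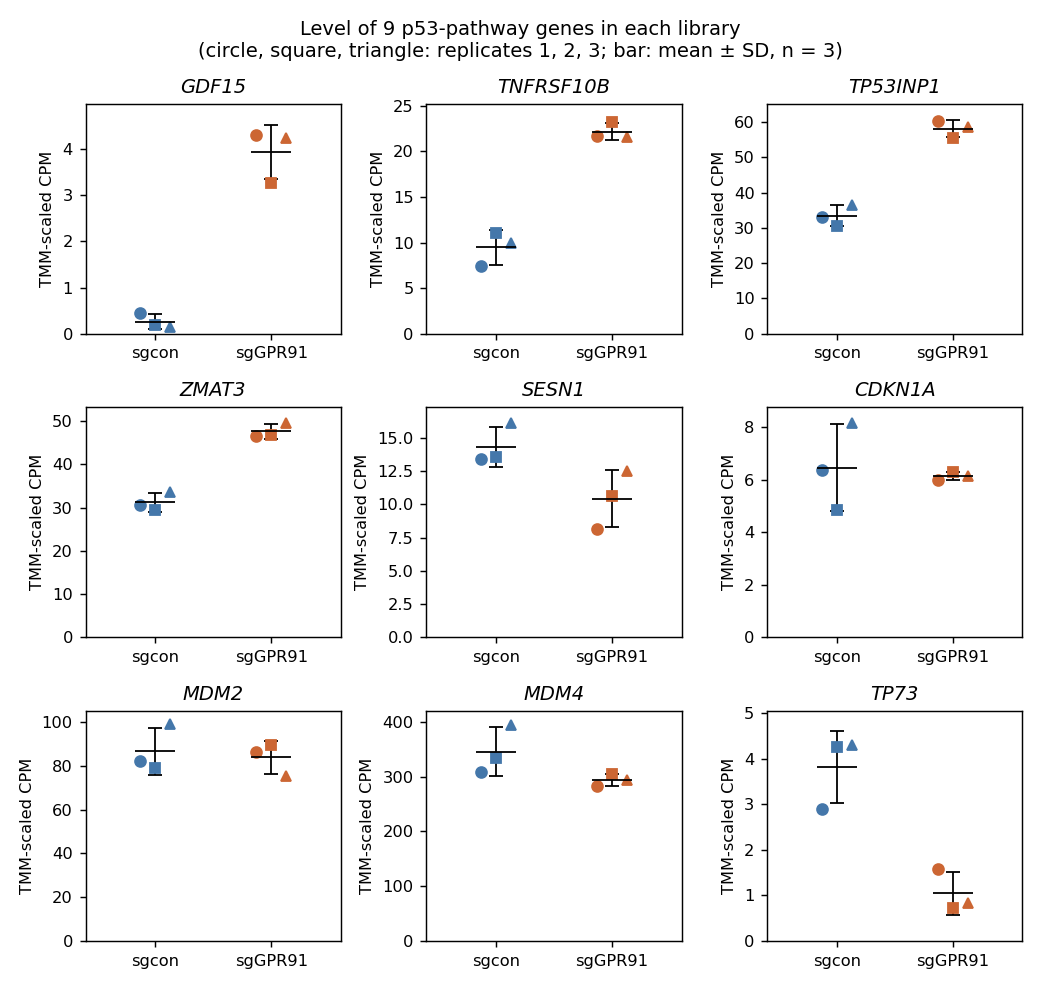
Levels in CPM, read counts scaled by TMM library size (vertical axes from 0), of the 9 genes in the 3 sgcon and 3 sgGPR91 libraries, with symbols for replicates 1, 2 and 3 and bars for the mean ± SD. GDF15, TNFRSF10B, TP53INP1 and ZMAT3 are higher in every sgGPR91 library than in any sgcon library. TP73, SESN1 and MDM4 are lower in every sgGPR91 library, SESN1 and MDM4 by a small gap. The groups overlap for CDKN1A and MDM2.

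GDF15 encodes a secreted stress-responsive member of the TGF-beta superfamily (ENSG00000130513, chromosome 19, 18374731 to 18389176, plus strand). It had 4, 2 and 1 reads in sgcon replicates 1, 2 and 3, and 38, 27 and 36 reads in the sgGPR91 libraries. In library-scaled units these were 0.447, 0.198 and 0.139 CPM against 4.31, 3.27 and 4.25 CPM. The gene was near the detection limit in every sgcon library, where a floor of 3 reads stands at 0.297 to 0.416 CPM, and was low but clearly counted in every sgGPR91 library. Summed over libraries and scaled for depth, the 101 reads against 7 gave a ratio of 14.8 with an exact 95% interval of 6.94 to 37.8, which covers counting error only. The fitted log2 fold change was 3.82 ± 0.45 (SE), with an edgeR adjusted p of 6.02e-06. Its size depends on the few sgcon reads and on the scale: it was 1.36 on log2(FPKM + 1) and 3.20 on log2(FPKM + 0.1). GDF11, a gene of the same superfamily, rose 1.21-fold from 128.9 ± 6.54 to 156.6 ± 2.34 CPM (edgeR adjusted p = 0.00319).

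TNFRSF10B encodes death receptor 5, a receptor for the apoptosis-inducing ligand TRAIL (ENSG00000120889, chromosome 8, 23020133 to 23069031, minus strand). Its level was 7.38, 11.1 and 9.99 CPM in the sgcon libraries and 21.7, 23.2 and 21.6 CPM in the sgGPR91 libraries, so every sgGPR91 library lay far above the highest sgcon one. It rose 2.33-fold, with a log2 fold change of 1.22 ± 0.15 (SE) and an edgeR adjusted p of 1.09e-05. The other TNFRSF10 genes, which also encode TRAIL receptors, lie beside it on chromosome 8, and their reads were close to absent. TNFRSF10A, which encodes death receptor 4, had 0 reads in sgcon and 2 in sgGPR91, and the decoy receptor genes TNFRSF10C and TNFRSF10D had 0 reads. TNFRSF10B was therefore the 1 member of this receptor family with more than a few reads in these libraries.

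TP53INP1 encodes a nuclear and autophagy-related stress protein that p53 induces (ENSG00000164938, chromosome 8, 94925972 to 94949378, minus strand). It was at 33.0, 30.7 and 36.6 CPM in sgcon and at 60.4, 55.5 and 58.5 CPM in sgGPR91. Both groups were tight, and the rise was 1.75-fold, with a log2 fold change of 0.80 ± 0.09 (SE) and an edgeR adjusted p of 3.91e-06. The paralogue TP53INP2, which acts in autophagy, was at 26.9 ± 1.08 and 31.9 ± 0.532 CPM (SD, n = 3 per group) and narrowly missed the threshold (edgeR adjusted p = 0.0541), with a log2 fold change of 0.25 and a 95% interval of 0.04 to 0.45. Its adjusted p ran from 0.0346 to 0.133 over the alternatives and passed in 4 of them.

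ZMAT3 encodes a zinc finger RNA-binding protein that regulates splicing and RNA stability downstream of p53 (ENSG00000172667, chromosome 3, 178960121 to 179072215, minus strand). Its level was 30.6, 29.4 and 33.7 CPM in sgcon and 46.5, 46.8 and 49.7 CPM in sgGPR91. The groups were separate, and the 1.53-fold rise had a log2 value of 0.61 ± 0.09 (SE) and an adjusted p of 6.21e-05 in edgeR. The other tested ZMAT genes, which share the zinc finger type but are not established p53 targets, were not called higher. Whether target status had a part in this was not tested. ZMAT1 fell from 6.76 ± 0.867 to 2.57 ± 1.07 CPM and ZMAT4 from 3.78 ± 0.0979 to 1.22 ± 0.103 CPM, while ZMAT2 and ZMAT5 did not pass (edgeR adjusted p = 0.403 and 0.459).

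SESN1 encodes sestrin 1, an inhibitor of mTORC1 signalling that p53 and FOXO factors can induce (ENSG00000080546, chromosome 6, 108986437 to 109094819, minus strand). It stood at 13.4, 13.6 and 16.1 CPM in sgcon and at 8.17, 10.7 and 12.5 CPM in sgGPR91. The groups did not overlap but came close, with sgGPR91 replicate 3 near sgcon replicate 1. The log2 fold change was -0.45 ± 0.17 (SE), with an edgeR adjusted p of 0.0442. This call was fragile, since it ended with DESeq2 (adjusted p = 0.0664) and without sgcon replicate 2, sgcon replicate 3, sgGPR91 replicate 1 or sgGPR91 replicate 2 (adjusted p = 0.0692, 0.103, 0.199 and 0.0926). Without sgGPR91 replicate 1 the log2 fold change was -0.30. Sestrin transcripts were mainly SESN3 by length-scaled level, at 83.5 ± 4.63 FPKM in sgcon and 69.1 ± 6.07 FPKM in sgGPR91, against 2.80 ± 0.353 and 2.05 ± 0.438 FPKM for SESN1. SESN3 fell 1.22-fold (edgeR adjusted p = 0.0112), a call lost when sgGPR91 replicate 1 was omitted (adjusted p = 0.0715). SESN2, which the integrated stress response also induces, was at 14.7, 9.40 and 22.5 CPM in sgcon and at 15.2, 15.2 and 14.9 CPM in sgGPR91, so its sgcon libraries spread widely on both sides of the sgGPR91 level.

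CDKN1A encodes p21, the cyclin-dependent kinase inhibitor that carries out much of p53-dependent arrest (ENSG00000124762, chromosome 6, 36676460 to 36687337, plus strand). Its level was 6.38, 4.85 and 8.18 CPM in sgcon and 6.02, 6.29 and 6.14 CPM in sgGPR91. The sgGPR91 libraries lay within the sgcon range. The log2 fold change was -0.05 with a 95% interval of -0.53 to 0.42 (edgeR adjusted p = 0.872), so rises of the size seen for TNFRSF10B, TP53INP1 or ZMAT3 lay outside the interval, and changes within those bounds could not be told from none. The related inhibitor genes were more abundant by length. CDKN1B (p27) was at 23.6 ± 1.95 FPKM and CDKN1C (p57) at 25.2 ± 7.47 FPKM in sgcon, against 2.16 ± 0.598 FPKM for CDKN1A. CDKN1C, an imprinted gene, fell 3.12-fold from 62.9 ± 19.6 to 20.3 ± 0.222 CPM (edgeR adjusted p = 2.09e-06), and sgcon replicate 3 was the lowest of its group at 40.4 CPM. CDKN1B missed the threshold (adjusted p = 0.0704) but passed without sgcon replicate 3 (adjusted p = 0.00208).

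MDM2, the ubiquitin ligase gene whose internal promoter is printed above, did not differ beyond the spread (ENSG00000135679, chromosome 12, 68808177 to 68845544, plus strand). It was at 82.1, 78.9 and 98.9 CPM in sgcon and at 86.4, 89.4 and 75.5 CPM in sgGPR91, and the groups overlapped. The log2 fold change was -0.04 with a 95% interval of -0.24 to 0.15 (edgeR adjusted p = 0.736). MDM2 was counted with 640 to 798 reads per library, so its interval was the narrower of those of the 2 uncalled members.

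MDM4, the partner of MDM2 (ENSG00000198625, chromosome 1, 204516379 to 204558120, plus strand), was at 308.5, 333.2 and 394.4 CPM in sgcon and at 283.1, 305.2 and 294.4 CPM in sgGPR91. The groups were separate by a small gap, and sgcon replicate 3 stood above the other sgcon libraries. The log2 fold change was -0.23 ± 0.08 (SE), a 1.17-fold fall with an edgeR adjusted p of 0.0388. Without sgcon replicate 3 it was -0.12 with an adjusted p of 0.114, and leaving out sgcon replicate 2 or sgGPR91 replicate 1, 2 or 3 also ended the call (adjusted p = 0.0644, 0.132, 0.0734 and 0.11). On FPKM, MDM4 was 2.84, 3.18 and 3.01 times MDM2 in the sgcon libraries and 2.47, 2.58 and 2.94 times MDM2 in the sgGPR91 libraries, with means of 3.01 ± 0.175 and 2.66 ± 0.246. MDM4 thus exceeded MDM2 in every library, and the ratios of the groups overlapped. Both levels rest on the listed gene lengths, 11008 bases for MDM4 and 8306 for MDM2. GENCODE version 29 gives the same length for MDM4 but 13284 exon bases for MDM2, with a later gene end, and with those lengths the ratios were 4.81 ± 0.279 and 4.26 ± 0.394.

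TP73 encodes p73, a p53 relative that can bind the same sites and that exists in full-length and amino-terminally truncated forms, the latter opposing p53 (ENSG00000078900, chromosome 1, 3652516 to 3736201, plus strand). It had 26, 43 and 31 reads in sgcon and 14, 6 and 7 reads in sgGPR91, or 2.91, 4.25 and 4.30 CPM against 1.59, 0.726 and 0.826 CPM. The gene was low everywhere, and each sgGPR91 library was below each sgcon library. The fitted log2 fold change was -1.84 ± 0.37 (SE), with an edgeR adjusted p of 8.42e-04. The ratio of summed reads was 3.60 with an exact 95% interval of 2.34 to 5.74, which covers counting error only and not the spread among libraries. On log2(FPKM + 1), which compresses low genes, the difference was -0.44. Gene-level counts do not separate the full-length from the truncated forms. TP63, the remaining relative, had 1 read over the 6 libraries.

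Whether the counting used strand is not stated, so the counts may hold reads from overlapping genes. In GENCODE version 29, exons of genes on the opposite strand share 785 bases with MDM2 (the antisense gene AC025423.4) and 133 bases with it from CPM, 633 with TP73 (TP73-AS1), 363 with SESN1, 146 with CDKN1A and 67 with TNFRSF10B. A processed pseudogene on the same strand shares 439 bases with MDM2. GDF15, TP53INP1, ZMAT3 and MDM4 share no exon base with another gene there.

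**Figure D2:**
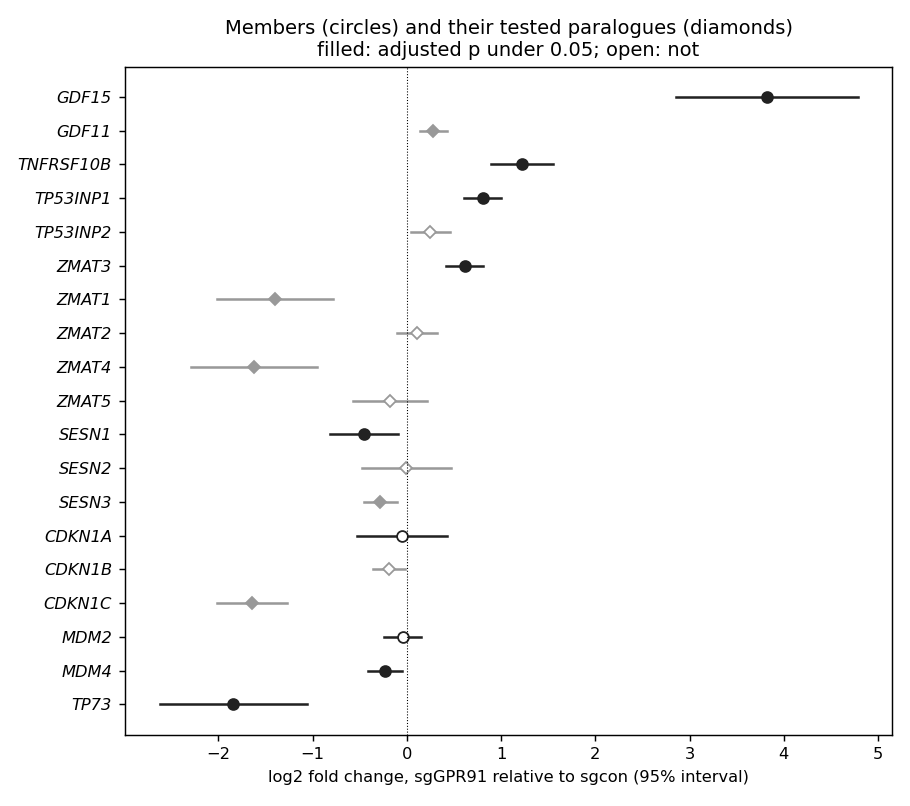
Log2 fold change of sgGPR91 relative to sgcon (horizontal axis) with 95% intervals for the 9 members (circles) and their tested paralogues (diamonds), filled where the edgeR adjusted p was under 0.05. The 4 rising members lie right of 0. Of the paralogues, GDF11 is called on that side too, and the interval of TP53INP2, which is not called, also lies right of 0. No tested ZMAT, SESN or CDKN1 paralogue is called on that side, and ZMAT1, ZMAT4 and CDKN1C are the paralogues furthest to the left.

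Ordered by length-scaled level (FPKM), the sgcon libraries gave MDM4 (31.3 ± 4.67), MDM2 (10.4 ± 1.51), TP53INP1 (5.91 ± 0.645), SESN1 (2.80 ± 0.353), ZMAT3 (2.76 ± 0.252), CDKN1A (2.16 ± 0.598), TNFRSF10B (1.89 ± 0.387), TP73 (0.563 ± 0.123) and GDF15 (0.124 ± 0.0762). In that order SESN1 overlapped with ZMAT3, ZMAT3 with CDKN1A and CDKN1A with TNFRSF10B in their ranges over 3 libraries, whereas the other neighbours did not. The sgGPR91 libraries gave a different order, with TP53INP1 (10.3 ± 0.361) level with MDM2 (10.1 ± 0.877), and TNFRSF10B (4.43 ± 0.209) level with ZMAT3 (4.23 ± 0.171). GDF15 (1.89 ± 0.272) then overlapped with SESN1 (2.05 ± 0.438), and TP73 (0.155 ± 0.0683) was lowest. With GENCODE exon lengths, a choice made after seeing the data, MDM2 stood at 6.51 ± 0.944 FPKM in sgcon, overlapping with TP53INP1 (5.87 ± 0.641), and at 6.32 ± 0.548 FPKM in sgGPR91, below TP53INP1 (10.3 ± 0.359). ZMAT3 was then at 4.95 ± 0.201 FPKM in sgGPR91, above TNFRSF10B (4.31 ± 0.203).

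**Figure D3:**
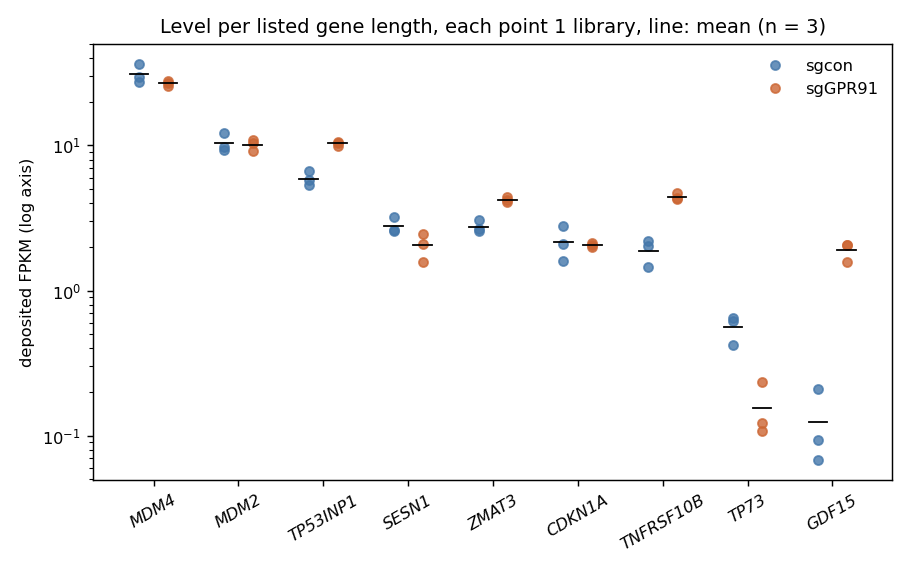
Deposited FPKM of the 9 members on a log axis, each point 1 library (blue sgcon, orange sgGPR91) and each line the mean of 3, ordered by the sgcon mean. MDM4 is highest in both groups, and GDF15 moves from the lowest position in sgcon to the level of SESN1 and CDKN1A in sgGPR91.

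The members lie on 6 chromosomes, and no common shift of their genomic neighbours was seen. Within 5 Mb on either side, the median log2 fold change of the tested neighbours ran from -0.08 around GDF15 (142 genes) to 0.12 around MDM2 (33 genes). No neighbour rose more than GDF15 or TP53INP1 or fell more than TP73. Around TNFRSF10B 6 of 52 neighbours rose further than it did, and around ZMAT3 3 of 26.

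Other p53 target genes, 50 taken from a list written with earlier results of these data known, did not move on balance in the direction of the 4 rising members. Of these, 39 were tested, of which 7 were called higher and 13 lower (17.9% and 33.3%, beside 20.2% and 21.0% of all genes tested), and their median log2 fold change was -0.08. The remaining 11 fell below the count filter. They include FAS, a death receptor gene, with 24 reads in sgcon and 25 in sgGPR91, as well as SFN, PHLDA3, PERP and the TRAIL receptor genes above.

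Among the risers, DRAM1, a lysosomal autophagy regulator gene, went from 7.45 ± 0.329 to 11.5 ± 0.787 CPM. BAX, the pore-forming effector gene of mitochondrial apoptosis, rose 1.34-fold from 24.1 ± 0.742 to 32.2 ± 1.95 CPM with an edgeR adjusted p of 0.00356. The rises of ASTN2 and BLOC1S2 were 1.33-fold and 1.30-fold, and the BLOC1S2 call ended without sgcon replicate 1, sgGPR91 replicate 1 or sgGPR91 replicate 3 (adjusted p = 0.0579, 0.0942 and 0.0642). TIGAR, a regulator of glycolysis picked out here with its value known because it was below the level of 5 CPM set for naming, rose 2.75-fold from 1.48 ± 0.309 to 4.02 ± 0.869 CPM.

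The falling targets included larger changes. CMBL, a hydrolase gene, fell 8.46-fold from 77.5 ± 5.98 to 9.17 ± 0.672 CPM with an edgeR adjusted p of 1.06e-11. LIF, a cytokine gene of the interleukin 6 family, fell 4.87-fold from 9.57 ± 0.401 to 1.96 ± 0.0422 CPM. FBXW7, the substrate-binding subunit gene of a ubiquitin ligase, fell from 56.3 ± 2.18 to 27.9 ± 0.984 CPM, TP53I11 from 70.5 ± 4.92 to 39.1 ± 2.19 CPM, and FDXR, the mitochondrial ferredoxin reductase gene, from 16.0 ± 1.95 to 8.96 ± 0.307 CPM. Neighbours of FBXW7 on chromosome 4 and of FDXR on chromosome 17 were lower too, with medians of -0.42 over 22 genes and -0.34 over 88 genes, and the part of that in either fall was not tested. The BH3-only genes BBC3 (PUMA) and PMAIP1 (NOXA), named after their values were seen, were at 8.18 ± 0.419 and 5.83 ± 0.260 CPM (edgeR adjusted p = 0.0457, lower) and at 11.6 ± 1.20 and 13.3 ± 0.646 CPM (adjusted p = 0.296).

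Within the p53 family and its regulators, 31 genes listed and 29 tested, 2 were called higher and 12 lower (6.90% and 41.4%, beside 20.2% and 21.0% of all genes tested), with a median log2 fold change of -0.20. This list too was written with earlier results of these data known, which may have shaped these shares. The called changes were all under 2-fold. ATR, the replication stress kinase gene, and YY1, a factor that promotes p53 degradation, rose 1.46-fold and 1.23-fold. PPP1R13B, which encodes ASPP1, a p53-binding protein that favours apoptotic targets, fell from 195.7 ± 12.2 to 139.9 ± 5.10 CPM. RCHY1, also known as PIRH2, a p53 ubiquitin ligase gene on chromosome 4, fell 1.41-fold among neighbours with a median of -0.41, and BANP, HDAC1 and CREBBP fell 1.36-fold, 1.31-fold and 1.22-fold. The number called lower went from 12 to between 5 and 12 when 1 library was left out, being 5 without sgcon replicate 2 or sgGPR91 replicate 3 and 7 without sgGPR91 replicate 1 or 2, and the CREBBP call ended without sgcon replicate 2, sgcon replicate 3 or sgGPR91 replicate 3 (adjusted p = 0.0506, 0.0502 and 0.0833; log2 fold change -0.19 without sgcon replicate 3). CDKN2A, the gene of the MDM2 inhibitor ARF, was below the filter with 19 reads in sgcon and 6 in sgGPR91.

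**Figure D4:**
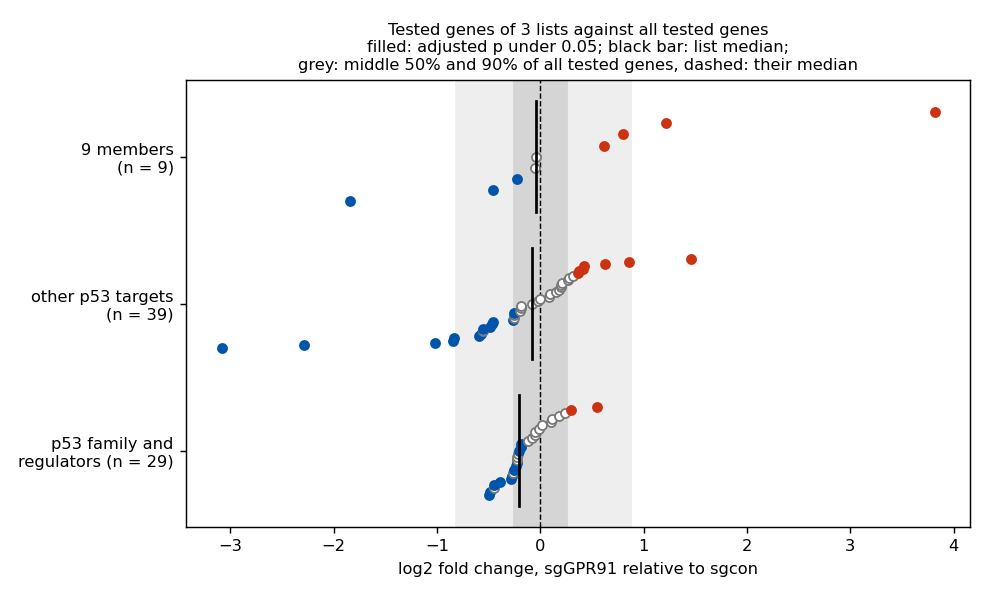
Log2 fold change of sgGPR91 relative to sgcon for each tested gene of 3 lists, filled red or blue where called higher or lower and open where not, with the list median as a black bar. Grey bands hold the middle 50% and 90% of all tested genes. The other p53 targets (n = 39) spread to both sides around a median of -0.08, and the family and regulator genes (n = 29) lie mostly left of 0.

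Some members are known targets of other factors as well, whose transcripts were examined in a list of 9. GDF15 and TNFRSF10B are known to respond to the stress factors ATF4 and CHOP (DDIT3), and GDF15 to EGR1. Transcripts of all 3 factors were lower in sgGPR91. ATF4 went from 500.0 ± 58.7 to 301.9 ± 15.0 CPM, DDIT3 from 32.3 ± 13.4 to 10.4 ± 1.76 CPM and EGR1 from 26.8 ± 13.6 to 3.32 ± 1.64 CPM. These are transcript levels and not the activity of the factors. The part of any listed factor in the levels of the members was not tested. E2F1, a known activator of TP73, was at 100.8 ± 2.75 and 90.2 ± 10.7 CPM and was not called (edgeR adjusted p = 0.143), though it passed without sgGPR91 replicate 1 (adjusted p = 0.0291). FOXO1 rose from 2.00 ± 0.389 to 4.21 ± 0.890 CPM, while FOXO3 was at 255.9 ± 10.8 and 236.3 ± 9.95 CPM and was not called. The FOXO1 call ended without sgcon replicate 2 or sgGPR91 replicate 1 (adjusted p = 0.0516 and 0.0615). HIF1A rose 1.17-fold, a call that ended without sgcon replicate 2 or sgGPR91 replicate 3 (adjusted p = 0.0837 and 0.0807), and SP1 and NFE2L2 were not called.

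By Pearson correlation of log2 CPM over the 6 libraries, the genes most like GDF15 were PCDHAC2, ST18 and FREM1 (r of 0.999 or more), and those most like TP73 were ZNF34, MCM7 and GPRC5B (r = 0.997). Such likeness was common, with 979 and 190 of 12700 genes above r = 0.95, since the 6 libraries fall into the titled groups and share them across genes.

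**Figure D5:**
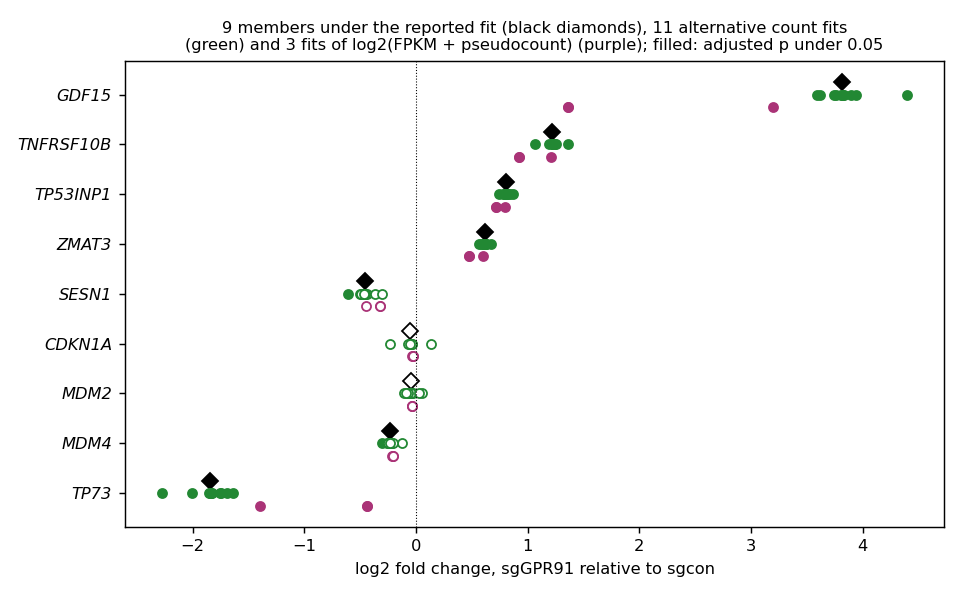
Log2 fold change of sgGPR91 relative to sgcon for each member under the reported fit (black diamonds), 11 other fits of the counts (green) and 3 fits of log2(FPKM + pseudocount) (purple), filled where the adjusted p was under 0.05. GDF15, TNFRSF10B, TP53INP1, ZMAT3 and TP73 are filled in all 14 alternatives, SESN1 and MDM4 in 5 each, and CDKN1A and MDM2 in none.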

How the data were processed

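The data are RNA sequencing of 6 libraries, grouped by title. The deposited read counts are whole numbers per gene with no normalization, per the file headers, and the deposited FPKM equal those counts scaled to the listed gene length and to the library's total count. The tools named in the submitters' processing notes are HISAT2, Bowtie2 and RSEM. The genome build, and which of these tools wrote the deposited counts, are not given in the sources used here. Listed coordinates had the same start as GENCODE version 29 (GRCh38) for 6 of the 9 members, the same end for 4 and the same strand for 9.

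Counts were fitted over the whole table with edgeR 4.0.16 in R 4.3.3: filterByExpr (minimum count 10, minimum total 15), TMM scaling, quasi-likelihood test with no covariate, Benjamini-Hochberg adjustment over 12701 genes, called under 0.05. CPM are TMM-scaled; the SE was derived from the fold change and its F statistic. Members and lists were chosen with earlier results of these data known. Named were all members, their tested paralogues, the listed other factors, and in each wider list up to 5 rising and 5 falling called genes with the largest change and at least 5 CPM in the higher group; some genes are not reported here. For GDF15 and TP73, the called members with the largest rise and fall, the 3 genes of highest correlation were named (log2 CPM with 0.5 added). Alternatives used RLE or upper-quartile factors, DESeq2 1.42.0, no count filter, limma 3.58.1 on log2(FPKM + 1) or log2(FPKM + 0.1), the replicate number as a block, and each library left out. The test was tried on simulated data.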

Additional observations from a re-analysis of the deposited data

How the results depend on the processing

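The 4 rising members were called in all 14 alternatives, as was the fall of TP73, and those of SESN1 and MDM4 each in 5. The number of members called lower, 3, became 1 with upper-quartile factors and in each of the limma fits of FPKM, and ran from 1 to 3 when 1 library was left out. For the other p53 targets the median of -0.0842 became -0.00817 with no count filter and -0.00196 with unfiltered limma on log2(FPKM + 1), where more low genes entered, and ran from -0.123 to -0.0194 without 1 library; the counts of 7 and 13 ran from 5 to 8 and from 10 to 14. For the p53 family and regulators the 12 called lower became 6 with unfiltered limma on log2(FPKM + 1) and ran from 5 to 12 without 1 library, with medians from -0.216 to -0.151. The cause of these shifts was not tested.

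Signs of the log2 fold change turned for genes that were not called: MDM2 (0.0583 without sgcon replicate 3, 0.0247 without sgGPR91 replicate 3; lowest -0.11), CDKN1A (0.139 without sgcon replicate 3; lowest -0.236), NFE2L2 (0.0388 without sgcon replicate 1; lowest -0.0973) and SESN2 (0.0081 with upper-quartile factors, 0.0337 with limma on log2(FPKM + 1) with or without the filter, 0.0568 on log2(FPKM + 0.1), 0.0241 with the replicate block, 0.34 without sgcon replicate 3 and 0.00248 without sgGPR91 replicate 3; lowest -0.285). Same-numbered libraries of the groups had deviations correlated at 0.0176 to 0.153, and 5 of 6 libraries correlated best with their own number. These matches reuse the same correlations and are not independent, so they are a weak hint, from the data and not the design. With the replicate number as a block 4 members were called higher and 3 lower, 8 and 14 of the other targets, and 3 and 15 of the family and regulators; CDKN1B passed (adjusted p = 0.0322). Depth limits GDF15 and TP73 most, with 1 to 43 reads per library. The ratio of MDM4 to MDM2 on FPKM, 3.01 in sgcon and 2.66 in sgGPR91, moved to 4.81 and 4.26 with GENCODE exon lengths, through the longer MDM2 model alone.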
